A study of Homo sapiens with 2 samples.

Results

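The proteasome is the large barrel-shaped protease that destroys ubiquitin-tagged proteins in the cytosol and nucleus. Its core particle stacks rings of alpha subunits, which gate entry, on rings of beta subunits, 3 of which carry the proteolytic sites. The regulatory particle has a base of ATPases that unfolds the substrate and a lid that removes ubiquitin, and dedicated chaperones put both particles together. In cells exposed to interferon the catalytic beta subunits are replaced by inducible counterparts, which favours the peptides shown on HLA class I. The transcripts of this machinery were read out in PLC, an established cell line from human liver cancer, and the genes were taken by name, as those called PSMA to PSMG with a number. This gave 48 genes of 26225 names found on the main chromosomes of both libraries.

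The study expressed PRSS35, a secreted serine protease, in PLC cells to find the proteins it cleaves, and sequenced RNA to see which of these changed in transcription. The control was PLC cells with the empty vector (EV), labelled WT, and the other group was PLC cells over-expressing PRSS35. Per the study's methods both lines were made with lentivirus and selected with puromycin, neither label lists a treatment, and whether a line was a pool or a clone was not given in the sources used here. There was 1 library per condition, so nothing shows how far replicate cultures would differ, and p-values are left out.

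The values are FPKM, which divides the fragments of a gene by its length and the library's size, so that levels of different genes can be set side by side. Each comes with the lower and upper bound that Cufflinks gives it, which covers error within a library and not the variation between cultures. The tables hold no counts. Over 209 low loci whose bounds imply whole fragments (within 0.01 and under 200), a single fragment stood for nearly the same FPKM in both (median ratio 0.999, PRSS35 over EV), so the libraries were about equally deep by this measure. PRSS35 itself had an FPKM of 0.643 in EV and 1836 in PRSS35. Of 10 hepatocyte markers all 10 had a mean FPKM of at least 1, with ALB at 4.05 in EV and 5.21 in PRSS35. All 5 markers of stroma or endothelium were below 1 FPKM in both libraries. Of the leukocyte markers PTPRC and CD3E were listed at 0 in both, CD14 was at 0 in EV and 0.234 in PRSS35, and LYZ was at 94.0 in EV and 104 in PRSS35.

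Of the 48 proteasome genes, 42 had a locus of their own in both libraries and a mean FPKM of at least 1, the threshold used here for expressed. Another 3, PSMB8, PSMB11 and PSMA8, were listed at 0 in both libraries. The remaining 3, PSMB10, PSME2 and PSME3, were read at a locus that Cufflinks had joined with a neighbouring gene in at least 1 library, and they are given by value but left out of counts and medians. The 42 genes were abundant transcripts. Their median FPKM was 66.5 in EV and 58.6 in PRSS35, against 9.04 and 9.63 over all 9681 expressed genes. In EV 19 of them, and in PRSS35 18, had an FPKM above 100.

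The levels differed between libraries by little and between subunits by much. A change is the log2 ratio of PRSS35 to EV after 1 FPKM was added to both, which understates the change of low genes, and calls were made at 2-fold on that scale. Of the 42 genes 0 were higher by 2-fold, where 1.89% of all expressed genes were, and 1 was lower, PSMA5, where 1.9% of all expressed genes were. At 1.5-fold the counts were again 0 higher, where 4.37% of all expressed genes were, and 1 lower, where 3.58% were. Over the 42 genes the log2 change had a median of 0.02, and over all expressed genes of 0.06. The change was under 0.3 on the log2 scale, in either direction, for 39 of the 42 genes (92.9%) and for 74.6% of all expressed genes. The summed FPKM of the 42 genes was 7598 in EV and 7619 in PRSS35. Without PSMA5 the sums were 7357 and 7579, a ratio of 1.03.

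For 12 of the 42 genes EV and PRSS35 had intervals apart, that is, without overlap. The PRSS35 interval lay above that of EV for 8 genes, or 19.0%, while this held for 24.8% of all expressed genes. It lay below for 4 genes, or 9.52%, while this held for 14% of all expressed genes. Both shares among the proteasome genes were near the background. For the other 30 genes the intervals overlapped. The split depends on the scaling. Centred on the median change of all expressed genes it was 5 above and 7 below, and with FPKM divided by the library's sum, which shifts the median gene from 0.06 to 0.68, it was 40 above and 1 below.

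**Figure D1:**
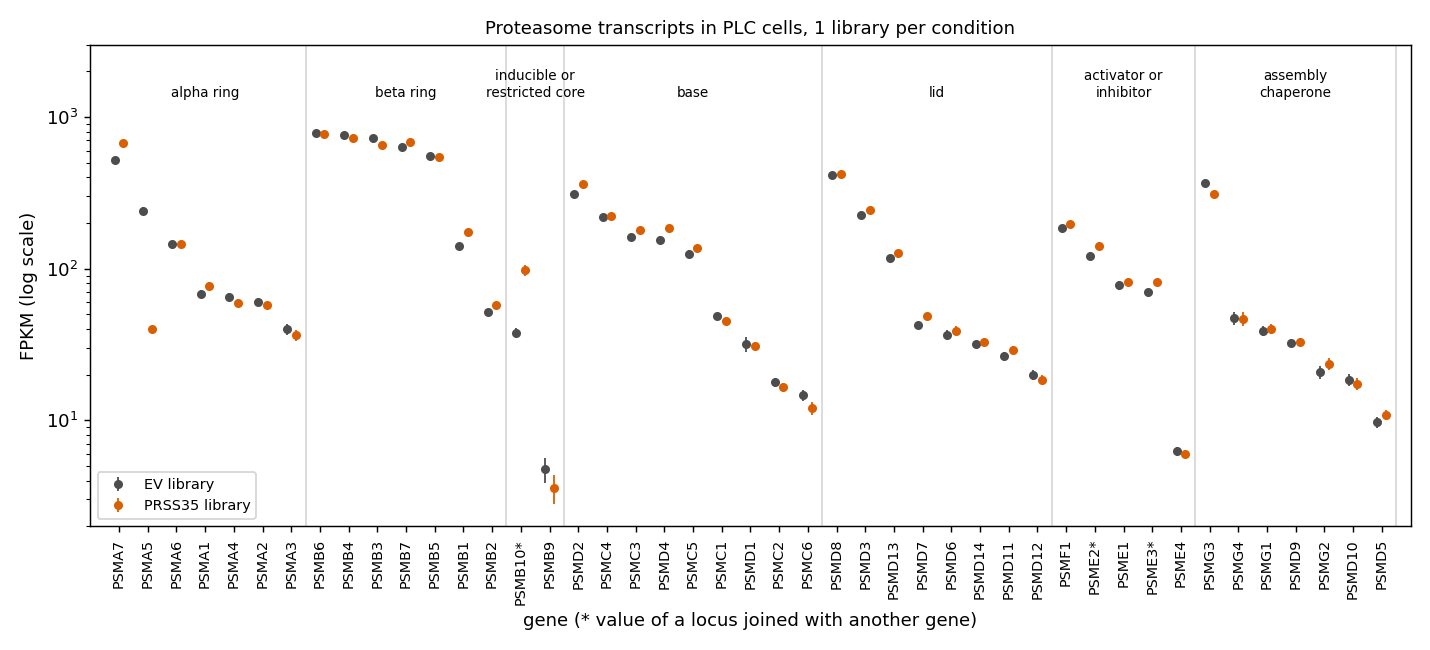
FPKM (log axis) of the 45 proteasome genes above 0, in EV (grey) and PRSS35 (orange), 1 library each, grouped by subcomplex. Bars are the Cufflinks bounds, and an asterisk marks a locus joined with another gene in at least 1 library. The points of each pair lie close together, apart from PSMA5 at 240.5 and 39.9 and PSMB10 at 37.7 and 97.7, while genes of 1 subcomplex lie more than 10-fold apart.

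The alpha ring was led by PSMA7 and held the gene with the largest change. PSMA7 had an FPKM of 520.3 (bounds 510.8 to 529.8) in EV and 678.2 (bounds 648.2 to 708.2) in PRSS35, a log2 change of 0.38 and the highest of the 42 genes. Its locus was annotated in EV and assembled from the reads in PRSS35, and the distance from FPKM to either bound was 1.83% of FPKM in EV and 4.42% in PRSS35. PSMA1 was at 68.2 in EV and 77.3 in PRSS35, with intervals apart in the same direction. The intervals overlapped for PSMA6, at 145.0 and 145.9, PSMA4, at 64.8 and 59.4, PSMA2, at 60.6 and 57.2, and PSMA3, the lowest of the ring, at 39.8 and 36.5. Within this ring, whose subunits occur once each in a ring of the particle, the highest FPKM was 13.1 times the lowest in EV and 18.6 times in PRSS35.

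PSMA5, another alpha subunit, had an FPKM of 240.5 (bounds 228.1 to 252.9) in EV and 39.9 (bounds 37.8 to 41.9) in PRSS35, a 6.03-fold lower value and a log2 change of -2.56. In EV it was the second highest alpha gene, and in PRSS35 it stood beside PSMA3, with overlapping intervals. The locus listed was the same in both tables, from 109941653 to 109969108 on chromosome 1 of hg19. In EV, however, it carried the identifier of a locus assembled from the reads, and in PRSS35 that of the annotated gene. The other 9 of the 42 genes that were assembled in EV only had log2 changes of at most 0.14 in either direction. Over all expressed genes assembled in EV only, 48 of 1025 (4.68%) differed by 2-fold, 42 of them lower in PRSS35. The share was 4.45% for the 5170 genes assembled in both libraries, with 110 higher and 120 lower. For the 1096 assembled in PRSS35 only it was 5.11%, with 50 higher and 6 lower. Of those annotated in both libraries 1.38% differed.

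FPKM is divided by transcript length, and the tables list no length for a locus. The annotated PSMA5 transcript (GENCODE on GRCh37, the assembly of hg19) has 9 exons on the minus strand and 3815 bases, the longest of the alpha ring after PSMA4. For PSMA5 the distance from FPKM to either bound was 5.17% of FPKM in EV and 5.11% in PRSS35. This relative width narrows as more fragments are seen, but it can also differ with the state of the locus. PSMB4, assembled in EV only like PSMA5, had 3.73% in EV and 1.66% in PRSS35 at FPKM of 756.3 and 731.5. PSMA6, also assembled in EV only, had 5.32% and 5.31%. Among 16 expressed genes that were annotated in both libraries, above 0 in both and 2-fold apart, it was a median of 1.83 times wider in the library with the lower FPKM. Among 39 such genes assembled in EV only, the median was 0.716. It was 0.970 among 127 assembled in both libraries and 0.942 among 47 assembled in PRSS35 only. For PSMA5 the ratio was 0.990. PSMA5 had a 6.03-fold lower FPKM with no wider interval. By these medians the width did not grow with a lower FPKM where a locus was assembled in 1 library or in both. For PSMA5, assembled in EV, the widths therefore cannot show whether fewer fragments were seen. The part of the locus assembly in the difference was not tested.

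The beta ring held the highest levels among the 42 genes. The catalytic subunit PSMB6, the caspase-like site, had an FPKM of 788.9 (bounds 753.7 to 824.0) in EV and 768.1 (bounds 733.8 to 802.4) in PRSS35. PSMB7, the trypsin-like site, was at 637.4 in EV and 678.8 in PRSS35, with overlapping intervals, and in PRSS35 it overlaps a locus joined with NEK6 that was at 52.0. PSMB5, the chymotrypsin-like site and the target of proteasome inhibitors such as bortezomib, was at 549.1 (bounds 525.0 to 573.3) in EV and 544.7 (bounds 520.7 to 568.7) in PRSS35. The log2 changes of the 3 catalytic subunits were -0.04, 0.09 and -0.01.

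Of the non-catalytic beta subunits, PSMB4 was at 756.3 in EV and 731.5 in PRSS35 and could not be set apart from PSMB6 in either library's order. PSMB3 was at 731.9 (bounds 698.8 to 764.9) in EV and 657.7 (bounds 627.7 to 687.7) in PRSS35, lower with intervals apart and a log2 change of -0.15, which becomes 0.56 with FPKM divided by the library's sum. PSMB1 was higher with intervals apart, at 140.9 (bounds 135.6 to 146.2) in EV and 173.6 (bounds 167.7 to 179.5) in PRSS35, a log2 change of 0.30. PSMB2, the lowest of the ring, was at 52.0 in EV and 57.7 in PRSS35, also with intervals apart. PSMB1, PSMB2 and PSMB3 kept the annotated locus in both libraries. The ring therefore split into 5 genes from 544.7 to 788.9 FPKM and 2 genes, PSMB1 and PSMB2, from 52.0 to 173.6.

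The inducible subunits were low next to the constitutive ones. PSMB8, the inducible counterpart of PSMB5, was listed at 0 in both libraries, as was the antisense gene PSMB8-AS1 that overlaps it. Neither row was flagged as failed, but an exact 0 may still not mean that the transcript was absent, so no fold is given. PSMB8 lies on chromosome 6 of hg19 from 32808494 to 32812712, between TAP2 and TAP1, which were at 15.6 and 17.6 FPKM in EV. It also has copies on alternate haplotypes of chromosome 6, all at 0. PSMB9, the counterpart of PSMB6, was at 4.74 (bounds 3.85 to 5.62) in EV and 3.59 (bounds 2.82 to 4.36) in PRSS35. Its intervals overlapped, and it came to 0.601% of PSMB6 in EV and 0.467% in PRSS35.

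PSMB10, the counterpart of PSMB7, was the most abundant inducible subunit. It was listed at 97.7 (bounds 89.8 to 105.5) in PRSS35, at a locus of its own assembled from the reads, which is 14.4% of PSMB7. In EV it was joined with the neighbouring gene CTRL, and this locus was at 37.7 (bounds 34.7 to 40.8), or 5.92% of PSMB7. The log2 difference of 1.35 compares unlike loci. The distance to either bound was 8.03% of FPKM in EV and 8.04% in PRSS35, and CTRL was listed at 0 in PRSS35. The tissue-restricted core subunits PSMB11, of the thymus, and PSMA8, of the testis, were at 0 in both libraries.

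Interferon acts on its target genes through short promoter elements. The core of the interferon-stimulated response element, a pair of GAAA runs with any 2 bases between them, was searched on both strands in RefSeq promoter windows of GRCh38.p14, from 250 bases before to 50 after each start. Of the 48 genes 42 had such a window. The letters were found for 7 of these 42 genes, or 16.7%, and for 4.38% of all 27305 genes in the table. They include PSMB8, PSMB10, PSME1 and PSME2, which are known as interferon-inducible, beside PSMA4, PSMB4 and PSMG4. PSMB9 had no match in its window. The 7 matches are shown with 10 bases on each side, on the strand of the gene, with the match in capitals. A match on the other strand reads as a pair of TTTC runs.
PSMB8, chr6:32844032-32844061, minus strand: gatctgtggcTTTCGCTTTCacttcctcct
PSMB10, chr16:67936852-67936881, minus strand: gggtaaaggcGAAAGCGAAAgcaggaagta
PSME1, chr14:24136189-24136218, plus strand: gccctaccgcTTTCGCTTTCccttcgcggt
PSME2, chr14:24146619-24146648, minus strand: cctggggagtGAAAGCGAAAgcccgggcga
PSMG4, chr6:3258904-3258933, plus strand: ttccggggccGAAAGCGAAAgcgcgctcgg
PSMB4, chr1:151399495-151399524, plus strand: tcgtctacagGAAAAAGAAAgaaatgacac
PSMA4, chr15:78540155-78540184, plus strand: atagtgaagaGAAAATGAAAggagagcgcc
In 5 of the 7 genes the match was the same run of letters, GAAAGCGAAA, and in those it began within 33 bases of the start. Their levels did not go together. PSMB8 was listed at 0, PSMG4, a core chaperone, was at 47.1 in EV and 46.7 in PRSS35, and PSME1 was at 77.7 and 81.7. A match is a description of these letters and not evidence of binding.

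The base of the regulatory particle contains the ATPases PSMC1 to PSMC6 and the larger subunits PSMD1, PSMD2 and PSMD4. Of these 9 genes 3 were higher with intervals apart besides 1 that was lower, and 5 had overlapping intervals. Over all expressed genes 24.8% were higher with intervals apart and 14% lower. PSMD2, a scaffold that binds ubiquitin shuttles, was the most abundant, at 308.1 (bounds 294.9 to 321.4) in EV and 359.7 (bounds 344.3 to 375.0) in PRSS35. PSMD4, a ubiquitin receptor, was at 155.3 (bounds 147.6 to 163.1) in EV and 186.0 (bounds 176.9 to 195.0) in PRSS35, a log2 change of 0.26. PSMC3 was the other higher gene, at 162.1 in EV, where its locus was assembled, and 179.0 in PRSS35, where it was annotated.

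PSMC6 was the lowest gene of the base and the one that was lower with intervals apart, at 14.6 (bounds 13.4 to 15.8) in EV and 12.0 (bounds 10.8 to 13.2) in PRSS35, although with FPKM divided by the library's sum its log2 change of -0.26 becomes 0.40. Its locus was assembled in PRSS35 only. The ATPases form a ring with 1 copy of each, yet the highest of their transcripts was 18.4 times the lowest in PRSS35. PSMC4 was at 219.5 in EV and 221.1 in PRSS35, PSMC5, which overlaps FTSJ3, at 125.4 and 136.9, PSMC1 at 48.8 and 45.3, and PSMC2 at 17.8 and 16.4. For these 4 ATPases the intervals of the libraries overlapped. PSMD1, the scaffold across from PSMD2, was at 31.7 in EV and 30.9 in PRSS35, also with overlapping intervals.

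The lid had 1 gene past its bounds, where 24.8% of all expressed genes were higher with intervals apart and 14% lower. Of its 8 genes 7 had overlapping intervals, and the log2 changes ran from -0.11 for PSMD12 to 0.20 for PSMD7. PSMD14, the deubiquitinase that cuts ubiquitin from the substrate, was at 31.6 (bounds 30.0 to 33.3) in EV and 32.9 (bounds 31.2 to 34.6) in PRSS35. PSMD7, its partner subunit, was at 42.3 (bounds 40.4 to 44.3) in EV and 48.9 (bounds 46.8 to 51.0) in PRSS35, the only lid gene with intervals apart. The structural subunits PSMD8, at 412.6 in EV and 420.3 in PRSS35, and PSMD3, at 224.3 and 241.8, were the most abundant. PSMD13 was at 117.6 and 126.3, PSMD6 at 36.5 and 38.9, PSMD11 at 26.5 and 29.2, and PSMD12, the lowest, at 19.9 and 18.3.

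Other caps can replace the regulatory particle on the core. PSME1, a subunit of the PA28 activator, was at 77.7 (bounds 72.7 to 82.6) in EV and 81.7 (bounds 76.6 to 86.8) in PRSS35. Its partner PSME2 was read at a locus joined with the microRNA gene MIR7703 in both libraries, at 121.6 in EV and 141.0 in PRSS35. PSME3, the nuclear form, was joined with AOC2 in both, at 70.3 in EV and 81.6 in PRSS35. Both joined loci were higher with intervals apart, and how much of that came from the named subunit cannot be told apart. PSME4, the activator PA200, was the second lowest of the 42 genes in both libraries, at 6.23 in EV and 5.96 in PRSS35. PSMF1, the inhibitor PI31, was at 186.5 in EV and 197.9 in PRSS35, and for both the intervals overlapped.

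The assembly chaperones were mostly low next to the other proteasome genes, with 1 exception. Each still lay above the median FPKM of all expressed genes, 9.04 in EV and 9.63 in PRSS35. PSMG3, which acts on the alpha ring together with PSMG4, was at 365.5 (bounds 349.8 to 381.2) in EV and 308.7 (bounds 295.3 to 322.1) in PRSS35, lower with intervals apart and a log2 change of -0.24, which becomes 0.47 with FPKM divided by the library's sum. Its locus was assembled in both libraries, and the neighbouring PSMG3-AS1 was listed at 0. PSMG4 was at 47.1 in EV and 46.7 in PRSS35, although the proteins pair. The other core chaperone pair was more even, with PSMG1 at 38.7 and 40.0 and PSMG2 at 20.7 and 23.6. The base chaperones PSMD9, at 32.2 and 32.6, PSMD10, known as gankyrin and raised in liver cancer, at 18.5 and 17.4, and PSMD5, at 9.68 and 10.8, all had overlapping intervals. PSMD5 overlaps the antisense gene PSMD5-AS1, listed at 5.92 in EV and 2.23 in PRSS35.

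**Figure D2:**
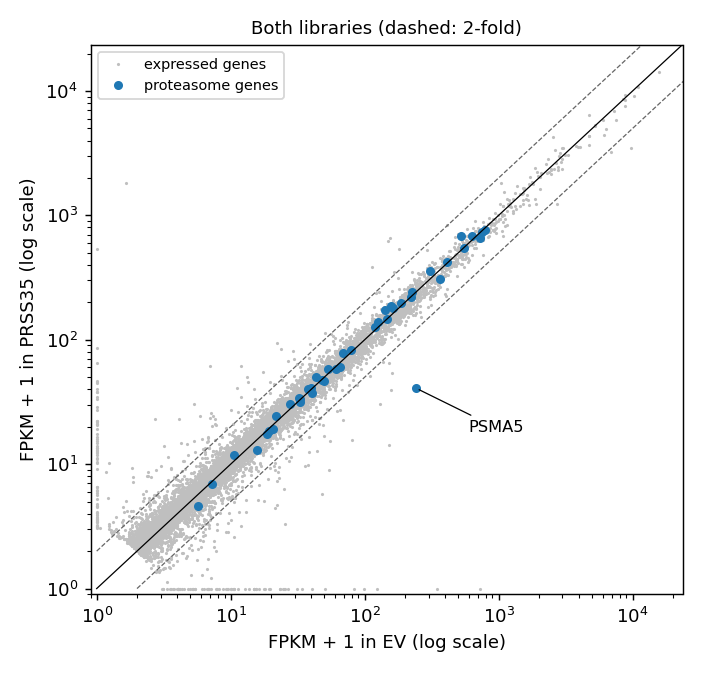
FPKM + 1 in EV against PRSS35 (both axes log) for 9681 expressed genes (grey) and the 42 proteasome genes with a locus of their own (blue), 1 library each. The solid line marks equal values and the dashed lines 2-fold. Of the blue points 41 lie between the dashed lines, and PSMA5 lies below them.

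Subunits that occur in equal copies in the particle thus had transcripts listed at very unequal levels, in much the same order in both libraries. These levels mix annotated and assembled loci, for which no length is listed. The SD of log2(FPKM + 1) within a library was 1.31 in EV and 1.45 in PRSS35 for the alpha ring, 1.52 and 1.42 for the beta ring, 1.60 and 1.75 for the base, and 1.57 and 1.58 for the lid, against 2.19 and 2.17 over all expressed genes. With genes annotated in both libraries only, and so fewer genes, the SD was 0.33 and 0.38 for the lid and 1.77 and 1.62 for the beta ring. The alpha ring and the base had too few such genes for an SD. Spearman's rho between the libraries over the 42 genes was 0.969, and over all expressed genes 0.957. Sorted by FPKM, 23 of the 41 neighbouring pairs of genes had overlapping intervals in EV and 25 of 41 in PRSS35, so the fine order is not resolved. The beta ring summed to 3656 FPKM in EV and 3612 in PRSS35, the alpha ring to 1139 and 1094, the base to 1083 and 1187, and the lid to 911.5 and 956.6.

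The level of a proteasome gene went with the base composition of its transcript. Over the 42 genes, Spearman's rho between FPKM and the GC content of the annotated transcript was 0.648 in EV and 0.703 in PRSS35, and over 8934 expressed genes with a gene model it was 0.374 and 0.376. PSMC6, with 36.4% GC, PSMD12, with 37.5%, and PSMC2, with 38.8%, were among the lowest, and PSMB6, with 55.2%, and PSMD8, with 57.4%, among the highest. PSMB9 was an exception, with 52.4% GC and the lowest level. With transcript length rho was -0.398 in EV and -0.433 in PRSS35, near the -0.383 and -0.385 of all expressed genes. With the change between the libraries, GC content had a rho of 0.219 and length of -0.06 over the 42 genes. Over the 8934 expressed genes these were -0.113 and 0.056, of the opposite sign. The genes share a library, so these are descriptions, and the part of GC content in the levels was not tested.

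Many proteasome genes are driven by NFE2L1, a factor that is made at the endoplasmic reticulum, extracted by VCP, deglycosylated by NGLY1 and cut by DDI2 when proteasome activity is short. Of a list of 8 expressed genes of this pathway with loci of their own, 3 were higher with intervals apart and 0 were lower. Of all expressed genes 24.8% were higher in this way and 14% lower. By 2-fold 0 of the 8 differed, where 1.89% of all expressed genes were higher and 1.9% lower. Over this and the other lists given below, 12 genes were higher with intervals apart, and 4 once changes were centred on the median gene. NFE2L1 was at 44.8 (bounds 42.6 to 47.0) in EV and 52.3 (bounds 49.8 to 54.7) in PRSS35. VCP was at 243.7 in EV and 272.8 in PRSS35, and UFD1L, its cofactor, at 52.9 and 62.6, both with intervals apart. NGLY1 was at 5.39 and 4.87, with overlapping intervals. DDI2 was read at a joined locus and gives no usable change, at 1.16 in EV and 5.62 in PRSS35, and DDI1 and SYVN1 were listed at 0 in both libraries. Over the 8 genes the log2 change had a median of 0.14.

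NFE2L1 binds antioxidant response elements, and the letters TGACNNNGC, the core of this element, were found on either strand in the promoter windows of 15 of the 42 genes that had one, or 35.7%. Over all genes in the table the share was 16.1%. The genes with a match were PSMA4, PSMB3, PSMB9, PSMC4, PSMC5, PSMD1, PSMD3, PSMD5, PSMD9, PSMD12, PSME1, PSME2, PSME4, PSMG1 and PSMG2. Shown, with 10 bases on each side and the match in capitals, is the match of the gene with the highest EV level in each subcomplex, leaving out the inducible subunits. In PSMC4 it lies on the other strand.
PSMA4, chr15:78540650-78540678, plus strand: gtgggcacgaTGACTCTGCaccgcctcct
PSMB3, chr17:38752627-38752655, plus strand: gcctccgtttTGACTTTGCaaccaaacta
PSMC4, chr19:39971182-39971210, plus strand: acagaggccgGCTTGGTCActatggagga
PSMD3, chr17:39980760-39980788, plus strand: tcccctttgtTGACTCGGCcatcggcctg
PSME2, chr14:24146767-24146795, minus strand: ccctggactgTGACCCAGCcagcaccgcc
PSMG1, chr21:39183616-39183644, minus strand: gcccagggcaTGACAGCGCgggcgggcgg
Among these genes PSMB3 was lower in PRSS35 with intervals apart, PSMA4, PSMC4, PSMD3 and PSMG1 had overlapping intervals, and the joined PSME2 locus was higher. Of all 15 genes with a match, only PSMB3 had intervals apart at a locus of its own. Its log2 change of -0.15 becomes 0.56 with FPKM divided by the library's sum. Whether the genes that carry the letters share a direction was thus not resolved. The CCAAT box, also on either strand, was in 20 of the 42 windows by gene, or 47.6%, and in 39.7% of all genes. The letters TTCNNNGAA of the gamma-activated site were in 8 of the 42, or 19.0%, and in 9.38% of all genes.

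Transcripts of proteins that work with the proteasome had log2 changes from -0.23 to 0.22. Of 12 expressed associated proteins 0 differed by 2-fold, where 1.89% of all expressed genes were higher and 1.9% lower. With intervals apart 1 was higher, where 24.8% of all expressed genes were, and 2 were lower, where 14% were. ADRM1, a ubiquitin receptor of the base, was at 862.5 (bounds 829.8 to 895.2) in EV and 737.8 (bounds 709.8 to 765.8) in PRSS35, a log2 change of -0.23. In EV its interval lay above that of PSMB6, the highest of the 42 genes, and in PRSS35 the intervals overlapped. KIAA0368, which encodes the adaptor ECM29, was the other lower gene, at 9.03 and 7.79. AKIRIN2, needed to bring proteasomes into the nucleus, was the higher gene, at 11.8 and 13.9. The core maturation factor POMP was at 38.35 in EV and 38.004 in PRSS35, and the deubiquitinases USP14 and UCHL5 were at 15.1 and 14.9 and at 14.0 and 12.5, all with overlapping intervals.

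Ubiquitin itself was among the most abundant products. UBB was at 1510 in EV and 1512 in PRSS35, with overlapping intervals. RPS27A was joined with another gene and is not compared. Of the 10 expressed genes for ubiquitin, its activation and its shuttles, 4 were higher with intervals apart, where 24.8% of all expressed genes were. The only lower gene was UBA6, at 1.26 and 0.915, where 14% of all expressed genes were lower. The higher genes include the shuttles UBQLN2, at 7.68 and 9.50, and RAD23B, at 31.2 and 35.5. Of the 10 genes 0 differed by 2-fold, where 1.89% of all expressed genes were higher and 1.9% lower.

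The partners of the inducible subunits in antigen presentation were mostly higher where the locus was their own. Of 6 expressed genes 4 were higher with intervals apart, where 24.8% of all expressed genes were, and 0 were lower, where 14% were. By 2-fold 0 differed, where 1.89% of all expressed genes were higher and 1.9% lower. Over all the pathway lists the genes higher with intervals apart fell from 12 to 4 once changes were centred on the median gene. TAPBP, which bridges the transporter and HLA class I, was read at a joined locus, left out of this count, and went the other way, at 63.6 in EV and 46.4 in PRSS35. TAP1, the peptide transporter gene that lies next to PSMB9, was at 17.6 (bounds 16.5 to 18.8) in EV and 20.7 (bounds 19.4 to 22.0) in PRSS35, while PSMB9 was at 4.74 and 3.59 with overlapping intervals. TAP2 was at 15.56 and 18.01 and B2M at 131.8 and 142.0, both with intervals apart. IRF1 was at 2.92 and 3.23 and ERAP1 at 1.12 and 1.55, with overlapping intervals. Over the 6 genes the log2 change had a median of 0.18, against 0.06 over all expressed genes.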

How the data were processed

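RNA from PLC cells with EV or PRSS35 was sequenced by the authors, 1 library each, aligned to hg19 with TopHat2 2.1.0 and estimated with Cufflinks 2.2.1. A tool list in the submitters' processing notes names Cuffdiff 2.2.1. The authors deposited 1 table per library with the FPKM of each locus and its lower and upper bound. The annotation release and options were not given in the sources used here. Assembly was run per library, so a locus is either annotated or assembled. No counts were used, and depth is known only through the bounds.

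Loci on alternate or unplaced contigs and loci with a failed status were left out, and FPKM was summed over loci that share a name. Joined loci were flagged and kept out of counts and medians. Expressed means a mean FPKM of at least 1, 1 FPKM was added before log2 ratios were taken, and the thresholds were 2-fold and intervals that do not overlap. Bounds of both libraries were combined in quadrature on the log2 scale. No test was possible with 1 library per condition. Every proteasome gene was named, with full values for catalytic and inducible subunits, genes past 1.5-fold, the extremes of a subcomplex and genes with intervals apart, at 0 or joined. The members and lists were chosen with earlier results of these data known. Of the pathway lists, genes with intervals apart or at 0 were named, and POMP, USP14, UCHL5, NGLY1, DDI2, UBB, RPS27A, IRF1 and ERAP1 were chosen after their values were seen. The interval widths, relative depth, GC content and length were also added after values were seen. Values of some genes in the marker and pathway lists are not reported here. Starts were raised by 1 to count from 1. Promoters are from RefSeq (GRCh38.p14) and gene models from GENCODE v44lift37. An alignment of protein sequences was planned and not run, since no protein table was used here. The software was matplotlib 3.10.9, scipy 1.17.1, pandas 2.3.3 and numpy 2.4.6 under Python 3.11.15.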

Additional observations from a re-analysis of the deposited data

How the results depend on the processing

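Of 12 alternatives, division of FPKM by the library's total moved the values most, as the median gene then changed by 0.68 in place of 0.06. For the proteasome genes the median was 0.73, with 0.62 for the alpha ring, 0.70 for the beta ring, 0.72 for the base, 0.79 for the lid, 0.77 for activators and inhibitors and 0.71 for chaperones. Intervals were then above EV for 40 genes and below for 1, 2 genes were higher by 2-fold, and PSMB3 (0.56), PSMC6 (0.40) and PSMG3 (0.47) turned upward, each below that of the median gene. In the pathway lists 35 genes were above, 0 below and 1 past 2-fold. Centred on the median change, 5 proteasome genes were above and 7 below, and with upper quartile scaling 5 and 8, against 8 and 4 as deposited. The pathway genes above were 4 with either. With joined loci used, 1 proteasome gene, PSMB10, was higher by 2-fold, 2 pathway genes were past 2-fold, and the SD of activators and inhibitors was 1.82 in EV and 1.90 in PRSS35. With genes annotated in both libraries only, 0 proteasome genes were lower by 2-fold, since PSMA5 was left out, 3 were above and 1 below, with 6 and 1 pathway genes. The SD was then 1.77 in EV and 1.62 in PRSS35 for the beta ring, 0.33 and 0.38 for the lid, and 0.95 and 0.90 for the chaperones, with fewer genes in each. With a pseudocount of 5 FPKM the SD was 1.49 and 1.62 for the base and 2.102 and 2.17 for activators and inhibitors. At 1.5-fold the counts were again 0 higher and 1 lower. No paired analysis was possible because there is a single library in either condition. Differences between the lines cannot be told apart from those between cultures.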
